A study of Mus musculus with 2 samples.

Results

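Genes that copy DNA and make its building blocks were followed through 3 cell classes of a mouse tumour. The set holds 39 of the 32285 genes in the deposited gene lists, all found by symbol, and covers origin licensing, helicase activation, the sliding clamp and its loader, polymerases, strand maturation, nucleotide supply and control of S phase. Tumours were grown in C57BL/6 mice from MC38, a mouse colon carcinoma cell line, and profiled by droplet single-cell RNA sequencing that counts unique molecular identifiers (UMIs) at the 3′ ends of transcripts. RSPO3-OE was a tumour of MC38 cells that overexpress RSPO3, a secreted protein that strengthens Wnt signalling, and Ctrl a tumour of MC38-Ctrl cells. The labels give the tissue and the genotype and call the tumours xenografts, although cells and host are both mouse. The sources used here do not give the vector, the number, age and sex of the mice, the tumour site or the harvest time. Each group had 1 library, so no difference has a replicate check and no test was made. All intervals are 95% intervals of counting error alone. Where a pair of values is given, the RSPO3-OE value comes first.

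Cells were classed by fixed UMI rules. Tumour cells had 0 UMIs of the leukocyte gene Ptprc and at least 1 of Hmga2, an architectural chromatin gene of embryonic and tumour cells. Macrophages had at least 20 UMIs of the complement genes C1qa, C1qb and C1qc together. CD8 T cells had at least 2 UMIs of Cd8a and Cd8b1 and at least 1 of Cd3e and Cd3g. This gave 4204 RSPO3-OE and 4316 Ctrl tumour cells with a median of 25393.5 and 21438 UMIs, 1184 and 1164 macrophages with 11859 and 12645, and 339 and 175 CD8 T cells with 7049 and 7465. The libraries shared 7 barcodes. Transcripts of 4 Y-linked genes (Uty, Kdm5d, Eif2s3y and Ddx3y), counted as UMIs per 1e6 of the class total (CPM), summed to 0.364 and 0.189 CPM in tumour cells, against 154.5 and 96.4 CPM in macrophages and 164.6 and 125.8 CPM in CD8 T cells. The 6 tumour markers, all detected, differed between the libraries, at 1082 against 571.0 CPM in tumour cells. The 5 fibroblast markers, 0 of them at 0, stood at 3626 and 2426 CPM in tumour cells. CD8 T cells carried tumour markers at 47.6 against 251.6 CPM, with 1 of the 6 at 0 in RSPO3-OE, and fibroblast markers at 74.3 against 344.4 CPM. Mitochondrial UMIs took 2.84% and 4.02% in tumour cells. The part of these in the results was not tested.

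Before S phase, CDC6 and CDT1 load the MCM helicase onto origins, and geminin blocks CDT1 afterwards so that each origin fires once. MCM10, CDC45 and the GINS complex then switch the helicase on, RPA coats the single strands, primase and DNA polymerase alpha lay primers, and replication factor C loads the clamp PCNA for polymerases delta and epsilon. FEN1 and LIG1 join Okazaki fragments, and ribonucleotide reductase, thymidylate synthase, thymidine kinase and dUTPase keep thymidine nucleotides in and uracil out of DNA. Many of these genes are known targets of E2F transcription factors, which act at the transition from G1 to S phase. Replication genes therefore mark dividing cells in both tumours and activated immune cells.

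RefSeq promoters on GRCm38.p6 were matched for 32 of the 39 genes. Sequence after the RefSeq start was found in a GENCODE transcript for 26 of the 32. The GENCODE start of Mcm6 (128359664) lies downstream of the RefSeq start used here. An E2F-like motif, TTTNNCGC (N for any base) on either strand, was looked for in the 250 bases before the start. It lay there in 9 of the 32 (28.1%) and in 1186 of 27025 promoters in all (4.39%). Its matches can overlap each other on opposite strands. The CCAAT letters, also on either strand, lay in 20 of 32 (62.5%) against 34.5% of all promoters, and the letters TTTGAA in 4 of 32 (12.5%) against 16.3%. Upstream sequence outside GENCODE exons is shown for 4 genes, with E2F-like matches in capitals: Dtl and Uhrf1, lower in RSPO3-OE tumour cells, Mcm6 with 3 matches, and Clspn, the gene with the highest tumour ratio, which has none. Ung, Pola2 and Tyms, also lower, had no match, and Pola1, which was level, had 1. The stretches are chr1:191575545-191575635 for Dtl (minus strand), chr17:56303201-56303320 for Uhrf1 (plus), chr1:128359706-128359825 for Mcm6 (minus) and chr4:126556815-126556934 for Clspn (plus).
Dtl: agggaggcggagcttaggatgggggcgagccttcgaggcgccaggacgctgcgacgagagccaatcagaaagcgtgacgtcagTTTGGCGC
Uhrf1: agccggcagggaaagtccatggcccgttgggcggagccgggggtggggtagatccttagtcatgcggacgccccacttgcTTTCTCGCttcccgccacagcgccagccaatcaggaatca
Mcm6: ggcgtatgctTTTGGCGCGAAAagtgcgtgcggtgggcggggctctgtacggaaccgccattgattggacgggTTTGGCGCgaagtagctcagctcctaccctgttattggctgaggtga
Clspn: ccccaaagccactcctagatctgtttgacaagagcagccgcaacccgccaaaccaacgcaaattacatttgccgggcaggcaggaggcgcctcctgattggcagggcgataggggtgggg
A match is a match of letters. No match says only that these letters were not found in the window.

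All 39 genes were read in all 3 classes, and their summed level set the macrophages apart. Together they took 2109.6 against 2464.4 CPM in tumour cells, 2359.2 and 2435.6 CPM in CD8 T cells, and 1258.9 and 1393.9 CPM in macrophages. Macrophages were thus lowest in both libraries, and tumour cells and CD8 T cells were close in Ctrl. Gene by gene, the lowest of the 6 values lay in macrophages for 33 of the 39. The highest lay in tumour cells for 23, in CD8 T cells for 15 and in macrophages for 1, Gins1. As a measure of free RNA, 50 RSPO3-OE neutrophils, which have left the cell cycle, held 20 UMIs of the set in 95874, or 208.6 CPM (127.4 to 322.2). Their median depth was 1614.5 UMIs, and 8 of the 20 UMIs were Pcna. The 5 Ctrl neutrophils held 44 UMIs in 34053, or 1292.1 CPM (939.0 to 1734.2), near the macrophage level, so free RNA in Ctrl could not be gauged from them.

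Across the 6 values of a gene, the highest was at least 2 times the lowest for 27 of the 39 genes and at least 3 times for 9, with Dut, Rpa2 and Dtl (5.57 times) in front. Dut, the dUTPase, stood at 369.9 and 368.9 CPM in CD8 T cells, 290.3 and 307.7 CPM in tumour cells, and 60.4 and 74.4 CPM in macrophages. The library difference of Dut was small in lymphocytes and tumour cells beside its gap to macrophages. Rpa2, the middle subunit of RPA, stood at 112.5 and 113.5 CPM in CD8 T cells, 41.8 and 39.01 CPM in tumour cells and 20.2 and 23.4 CPM in macrophages. Pcna, the clamp itself, was flattest, with 195.5 and 160.4 CPM in CD8 T cells, 157.1 and 169.5 CPM in tumour cells, and 158.6 and 147.7 CPM in macrophages. Across all 6 values, the highest was 1.32 times the lowest for Pcna and 6.13 times for Dut. Levels are compared within a gene.

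**Figure D1:**
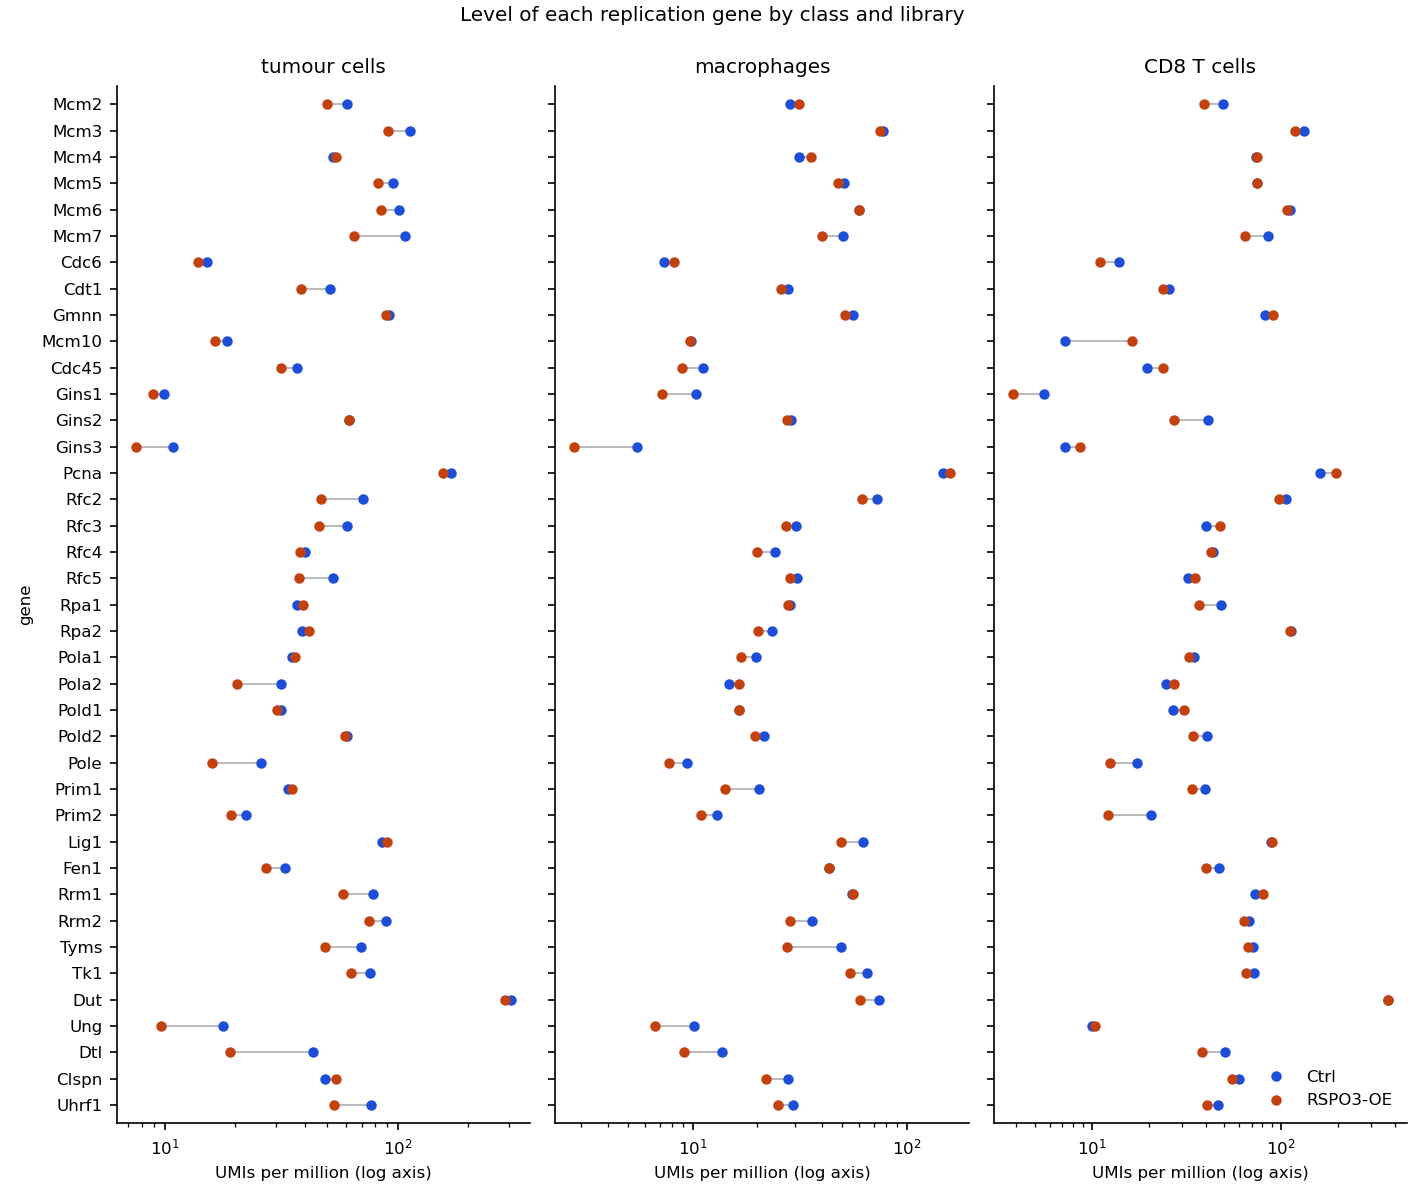
Level of each of the 39 genes (rows, grouped by role) in tumour cells, macrophages and CD8 T cells, in CPM on a log axis, with Ctrl in blue and RSPO3-OE in orange, 1 library each. Dtl and Ung show the widest gaps between the libraries in tumour cells, and Dut has the highest CPM of the set in tumour cells and CD8 T cells.

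In tumour cells most of the set stood lower in RSPO3-OE. The median log2 ratio of RSPO3-OE over Ctrl was -0.22, against -0.09 over all 14211 genes with at least 20 UMIs, and the summed level gave -0.22 (-0.23 to -0.22). Of the 39 ratios, 31 lay below 0, a share of 79.5% where 59.9% of all genes lay below 0. The counting interval lay wholly below 0 for 29, against 45.5% of all genes, wholly above 0 for 4, against 28.3%, and across 0 for 6. Intervals narrow as UMIs rise. All 39 genes had at least 100 UMIs in tumour cells, while the genes compared begin at 20. The interval shares are therefore not matched for depth. A gene was counted as lower when at least 20% below Ctrl and as higher when at least 25% above it. Lower were 13 genes (33.3%), close to the 29.9% of all genes, and 0 were higher, where 18.1% of all genes were. At least 1.5-fold lower were 6 (15.4%) against 15.9% of all genes, and 0 were that much higher against 11.8%. The shares of lower genes were thus near the background. Over the alternatives tried, 12 genes near 0 took both signs in tumour cells: Cdc6, Dut, Gins2, Gmnn, Lig1, Mcm4, Pola1, Pold1, Pold2, Prim1, Rfc4 and Rpa1.

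Licensing genes summed to 569.2 against 688.3 CPM in tumour cells, a log2 ratio of -0.27 (-0.29 to -0.26). Mcm7 (chr5:138164583-138172422, minus strand, mm10) was the lowest of the 6 helicase subunits, at 65.2 against 107.2 CPM, or -0.72 (-0.76 to -0.68). Mcm3, the licensing gene with the most UMIs, stood at 91.0 against 112.8 CPM (-0.31), Mcm2 at 49.7 against 60.5 CPM (-0.28), Mcm6 at 84.5 against 101.0 CPM (-0.26) and Mcm5 at 82.4 against 95.3 CPM (-0.21). The 6 subunits work as 1 ring, yet Mcm4 stood at 54.6 against 52.6 CPM, with a ratio of 0.05 whose interval took in 0. Exons of Mcm7 overlap those of Ap4m1 and Cops6 on the other strand. The loader Cdt1 stood at 38.7 against 51.3 CPM (-0.41), while its partner Cdc6 at 13.9 against 15.3 CPM (-0.13) and its inhibitor Gmnn at 89.2 against 92.1 CPM (-0.05) differed little.

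Among the helicase activators, Gins3 (chr8:95633453-95645060, plus strand) was at 7.53 against 10.9 CPM in tumour cells, or -0.53 (-0.66 to -0.40), whereas Gins2 of the same complex was level at 61.98 and 61.8 CPM (0.00). Gins1 (8.92 against 9.98 CPM), Mcm10 (16.5 against 18.6 CPM) and Cdc45 (31.7 against 36.96 CPM) lay between, with intervals below 0. Of the clamp loader, Rfc2 stood at 46.9 against 70.8 CPM (-0.59), Rfc5 at 37.7 against 52.8 CPM (-0.49) and Rfc3 at 46.2 against 60.6 CPM (-0.39), but Rfc4 at 38.3 against 39.99 CPM (-0.06). Pcna differed by -0.11 (-0.14 to -0.08). Exons of Gins2, Rfc2, Rfc4 and Rfc5 overlap genes of the other strand, the longest of them Gse1 on Gins2 over 2758 bases and Lat2 on Rfc2 over 952. Cdc45, Fen1, Lig1, Pole and Tk1 have such overlaps too, so the values of these genes are uncertain where the counting did not use strand.

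Subunits of polymerase alpha and of primase differed among themselves, while both RPA genes lay above 0. The catalytic subunit of polymerase epsilon, Pole, stood at 16.01 against 25.999 CPM in tumour cells, or -0.70 (-0.78 to -0.61). Pola2, the accessory subunit of polymerase alpha, stood at 20.4 against 31.6 CPM, or -0.63 (-0.71 to -0.56). Its catalytic partner Pola1 was level at 36.2 and 35.4 CPM (0.03), as were the polymerase delta genes Pold1 at 30.5 and 31.5 CPM and Pold2 at 59.2 and 60.9 CPM. Primase showed the same split, with Prim1 at 35.4 against 33.9 CPM (0.06) and Prim2 at 19.3 against 22.3 CPM (-0.20). Both RPA genes stood higher in RSPO3-OE, Rpa2 at 41.8 against 39.01 CPM or 0.10 (0.04 to 0.16), and Rpa1 at 39.1 against 37.1 CPM or 0.07 (0.01 to 0.14). DNA ligase 1 (Lig1) stood at 90.04 against 85.7 CPM, or 0.07 (0.03 to 0.11), and the flap nuclease Fen1 at 27.3 against 32.9 CPM (-0.27). Over the alternatives tried, Rpa1 ranged from -0.08 to 0.17, Lig1 from -0.02 to 0.17 and Prim1 from -0.09 to 0.17, so these 3 took both signs, while Rpa2 ranged from 0.05 to 0.20.

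Nucleotide supply genes summed to 545.9 against 638.9 CPM in tumour cells, or -0.23 (-0.24 to -0.21). Ung (chr5:114130386-114139323, plus strand), the glycosylase that removes uracil from DNA, stood at 9.66 against 17.8 CPM, or -0.88 (-0.99 to -0.77). Thymidylate synthase (Tyms, chr5:30058202-30073617, minus strand) stood at 48.98 against 69.7 CPM (-0.51), and the large subunit of ribonucleotide reductase, Rrm1, at 58.3 against 78.6 CPM (-0.43). Rrm2, its regulated small subunit, stood at 75.7 against 88.96 CPM (-0.23) and thymidine kinase Tk1 at 63.0 against 76.1 CPM (-0.27). Dut had the most UMIs of the group, at a ratio of -0.08 (-0.11 to -0.06). Processed pseudogenes of Pcna and Tyms are annotated in the genome, so reads of these 2 genes could be split or lost in counting.

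Genes of S phase control gave both ends of the range. Dtl (chr1:191537356-191575544, minus strand) encodes the substrate receptor of the CRL4 ubiquitin ligase that removes CDT1 and p21 during S phase. Dtl stood at 19.1 against 43.5 CPM in tumour cells, the lowest ratio of the set at -1.19 (-1.26 to -1.11), and 29.2% against 46.7% of cells held a UMI of it. With each cell thinned to 2000 UMIs those shares were 3.47% and 7.88%, and 0 of 50 RSPO3-OE neutrophils held one, which allows up to 7.11%. Uhrf1 (chr17:56303321-56323486, plus strand), which guides maintenance methylation to new DNA, stood at 53.1 against 76.6 CPM, or -0.53 (-0.58 to -0.48). Clspn (chr4:126556935-126593903, plus strand), the fork mediator of the checkpoint kinase CHK1, stood at 54.3 against 48.9 CPM, the highest ratio at 0.15 (0.10 to 0.21). Over the alternatives, Dtl ranged from -1.48 to -1.09 and Clspn from 0.10 to 0.25.

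**Figure D2:**
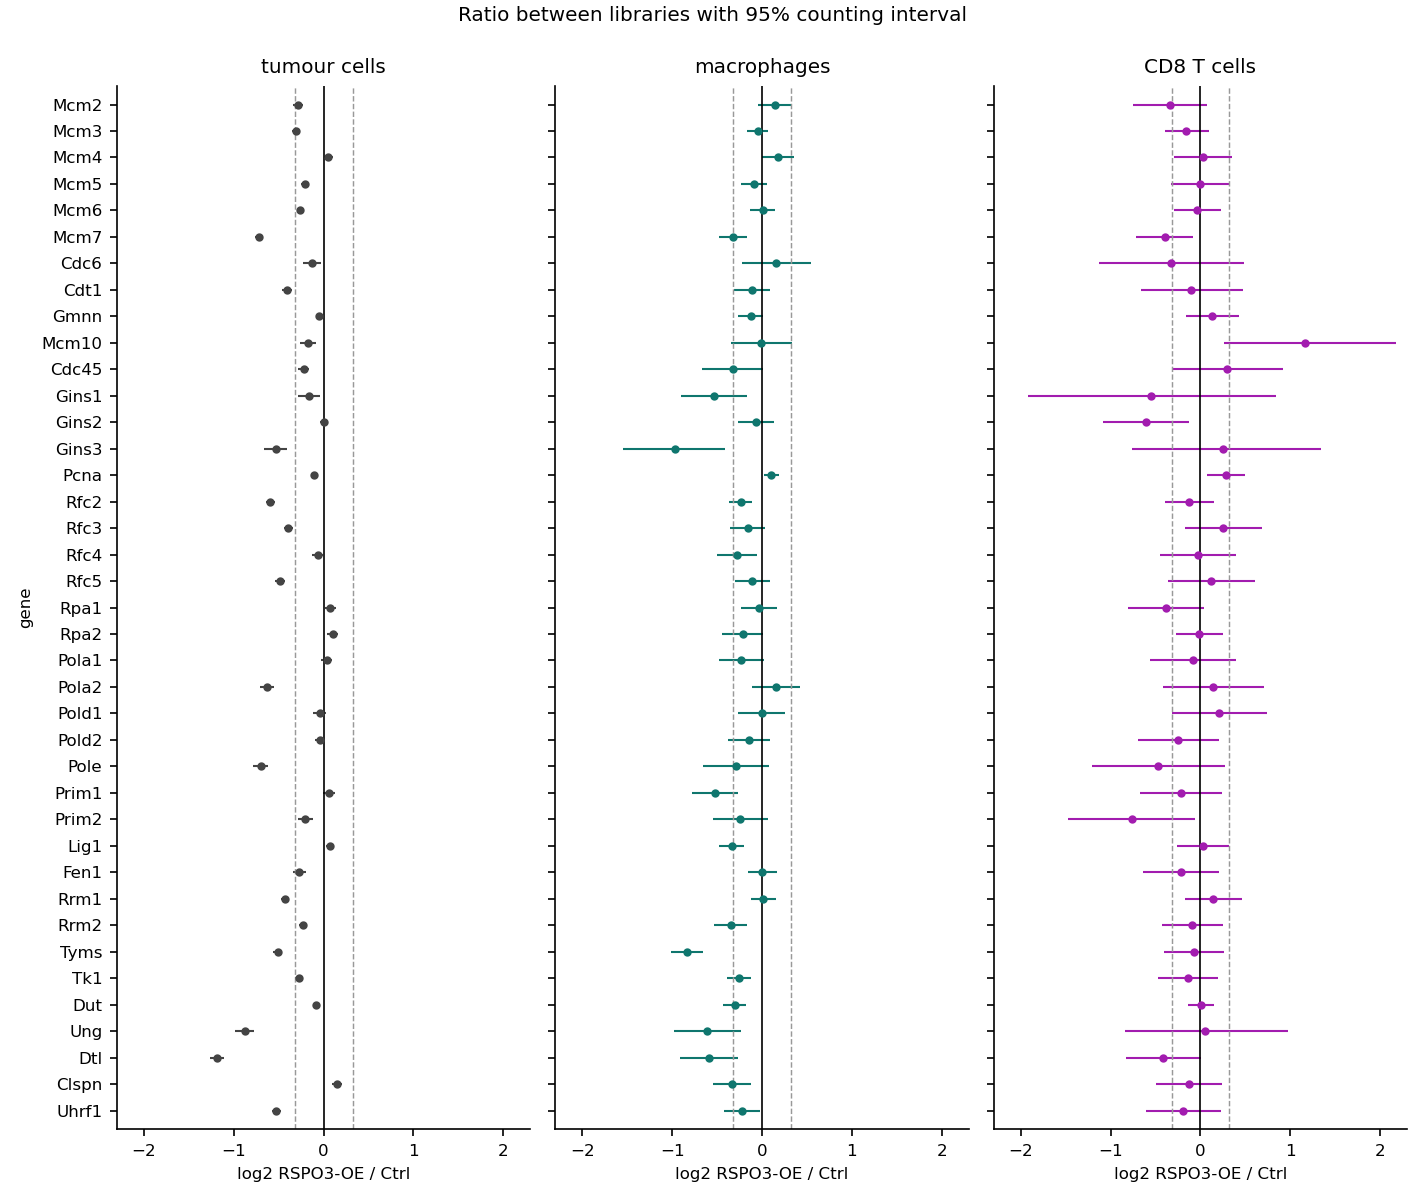
Log2 ratio of RSPO3-OE over Ctrl for each gene in the 3 classes, with the 95% counting interval as a bar and the limits for lower and higher marked by dashed lines. Tumour intervals are short and run from Dtl at -1.19 to Clspn at 0.15, while most CD8 T cell intervals cross 0.

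In macrophages the set was also lower in RSPO3-OE, with Gins3 and Tyms in front, ahead of Ung and Dtl. The median ratio was -0.21, against 0.03 over all 11820 genes, and 31 of 39 lay below 0, or 79.5% against 46.0% of all genes. The interval lay below 0 for 15, against 18.3% of all genes, above 0 for 1, Pcna, against 24.9%, and across 0 for 23. These interval shares, too, are not matched for depth. Lower were 11 genes (28.2%), against 15.3% of all genes, and 0 were higher, against 21.4%. At least 1.5-fold lower were 4 (10.3%) against 7.04%, and 0 were that much higher against 9.9%. With cells marked as doublets kept, the count of lower genes was 5 and the median -0.13, with no all-gene share computed for this setting. Tyms stood at 27.5 against 49.1 CPM in macrophages, or -0.84 (-1.02 to -0.66). Gins3 gave the lowest ratio from 41 and 86 UMIs, -0.97 (-1.54 to -0.42), followed after Tyms by Ung (6.68 against 10.2 CPM, -0.61), Dtl (9.14 against 13.8 CPM, -0.59, but 0.04 in cells thinned to 2000 UMIs), Gins1 (7.16 against 10.4 CPM, -0.53) and Prim1 (14.1 against 20.3 CPM, -0.52). Lig1 stood at 49.2 against 62.3 CPM (-0.34) and Clspn at 22.0 against 27.8 CPM (-0.33), both on the other side of 0 from tumour cells. Pcna stood at 158.6 against 147.7 CPM, or 0.10 (0.02 to 0.19), and Mcm4 at 35.5 against 31.4 CPM, the highest ratio at 0.18 with an interval that took in 0. Cdc6 (0.16), Pola2 (0.15) and Mcm2 (0.14) followed, each with an interval across 0. Over the alternatives, 13 genes took both signs in macrophages, Dtl, Pola2 and Mcm2 among them. Tumour markers in macrophages summed to 41.7 and 24.3 CPM, and their part in the result was not tested.

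In CD8 T cells the 2 libraries were hard to tell apart at this depth. The median ratio was -0.09, against -0.05 over all 9383 genes, and the summed level gave -0.05 (-0.10 to 0.01). The interval crossed 0 for 34 of the 39, and lay below 0 for 3, against 15.1% of all genes, and above 0 for 2, against 11.1%. The interval shares are again not matched for depth. Lower were 9 genes (23.1%), against 28.2% of all genes, and 1 was higher, against 18.9%. At least 1.5-fold lower were 2 (5.13%) against 16%, and 1 was that much higher against 9.11%. With doublets kept the count of lower genes was 5, with no all-gene share computed for this setting. Below 0 with their whole interval were Mcm7, at 64.95 against 85.5 CPM or -0.40 (-0.71 to -0.08), Gins2 at 27.1 against 41.4 CPM or -0.61 (-1.09 to -0.13), and Prim2 from 35 and 37 UMIs at -0.77 (-1.48 to -0.06). Above 0 were Pcna, at 195.5 against 160.4 CPM or 0.29 (0.08 to 0.50), and Mcm10, from 47 and 13 UMIs at 1.17 (0.26 to 2.18). Prim2 and Mcm10 had under 100 UMIs and are named because their intervals were seen to leave out 0. Gins2 turned to 0.06 in cells thinned to 2000 UMIs. Among genes with at least 100 UMIs whose intervals crossed 0, Dtl at 38.2 against 50.9 CPM (-0.41), Rpa1 (-0.39) and Mcm2 (-0.34) were lowest and Cdc45 (0.29), Rfc3 (0.25), Pold1 (0.20) and Pola2 (0.14) highest. Over the alternatives, 15 genes took both signs in CD8 T cells.

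Of the 39 genes, 1, Mcm7, had its interval below 0 in all 3 classes. No all-gene share was computed for the 3 classes together. The interval lay below 0 in both tumour cells and macrophages for 12 of the 39 genes, against 12.1% of 11220 genes compared in both: Mcm7, Gins1, Gins3, Rfc2, Rfc4, Rrm2, Tyms, Tk1, Dut, Ung, Dtl and Uhrf1. Counted as lower in both were 5 of these, Mcm7, Gins3, Tyms, Ung and Dtl, against 7.5% of the genes compared in both. The interval share of 12.1% is not matched to the set for UMI depth. Dtl in macrophages turned to 0.04 in cells thinned to 2000 UMIs. Rfc4 and Dut took both signs in tumour cells over the alternatives. The classes come from the same 2 libraries and are not independent of each other.

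Counts per cell were compared after thinning every cell to 2000 UMIs, which left out 2 and 3 tumour cells, 10 and 9 macrophages and 3 and 0 CD8 T cells. The set then gave a mean of 3.69 UMIs per RSPO3-OE and 4.40 per Ctrl tumour cell, with a median of 3 in both. Tumour cells with at least 5 were 31.6% (30.2 to 33.0) against 38.8% (37.3 to 40.3). Within such cells the mean was 8.19 and 8.65 UMIs. In macrophages the share was 14.7% (12.8 to 16.9) against 17.4% (15.3 to 19.7), and in CD8 T cells 28.9% (24.1 to 34.0) against 31.4% (24.6 to 38.9), with overlapping intervals in both. Without thinning, 93.9% and 91.5% of tumour cells, 57.6% and 62.5% of macrophages and 63.7% and 71.4% of CD8 T cells held at least 5 UMIs. Of 16 RSPO3-OE neutrophils thinned to 2000 UMIs, 0 held at least 5, which allows a share of up to 20.6%. Without thinning the share was 2% of RSPO3-OE neutrophils. The limit cuts a continuous range: 14.4% and 15.02% of tumour cells held 4 or 5 UMIs.

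**Figure D3:**
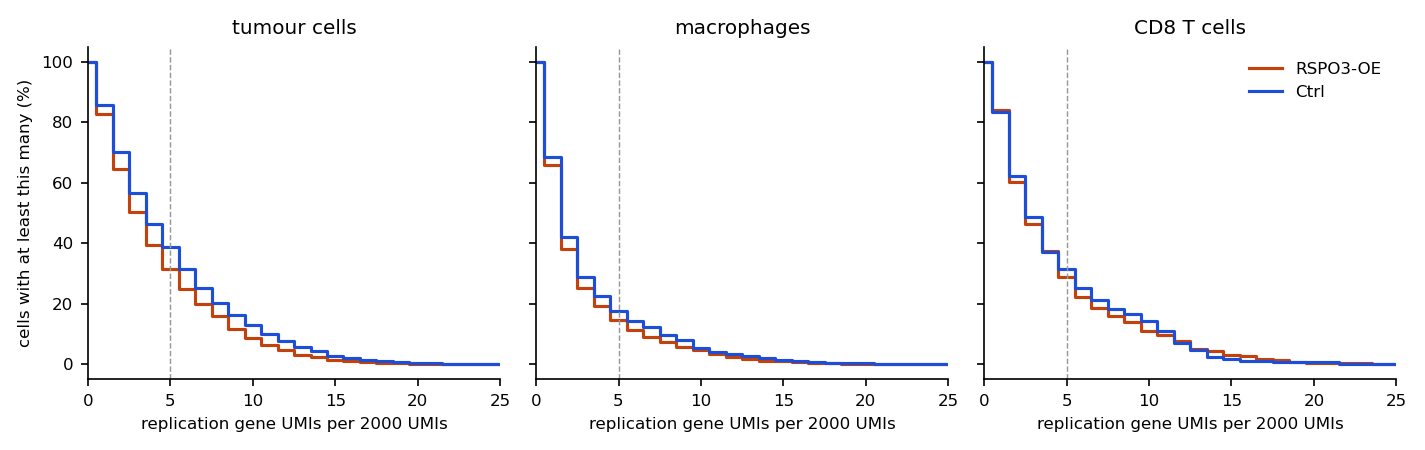
Share of cells (y axis, %) holding at least a given number of UMIs of the 39 genes (x axis) after thinning to 2000 UMIs per cell, for RSPO3-OE in orange and Ctrl in blue, with the limit of 5 dashed. The Ctrl curve lies above the RSPO3-OE curve in tumour cells, with 38.8% against 31.6% at the limit, and the curves nearly overlap in CD8 T cells.

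Mitosis genes, 26 genes of the spindle, chromosomes and mitotic kinases, place cells later in the cycle. In tumour cells their median ratio was -0.05. Of the 26, 2 were lower, against 29.9% of all genes, and 0 higher, against 18.1%. They ran from Cenpa (139.8 against 215.7 CPM, -0.63) and Aurka (-0.37) to Ccnb1 (0.18) and Prc1 (0.22). Cells with at least 5 replication UMIs and under 3 mitosis UMIs made up 10.9% against 13.7% of tumour cells, cells high in both 20.7% and 25.1%, and cells with mitosis UMIs alone 23.2% and 20.5%. In macrophages all 26 mitosis genes lay below 0, with a median of -0.60, and 23 counted as lower, against 15.3% of all genes. Cells with at least 3 mitosis UMIs and under 5 replication UMIs made up 7.84% and 12.6% of macrophages. The lowest mitosis genes in macrophages were the regulators Cdc20, at 18.3 against 34.6 CPM (-0.92), and Plk1 at 14.3 against 24.4 CPM (-0.77). The nearest to 0 were Top2a (-0.19) and Bub1b (-0.10). The CD8 T cell median was -0.03, with 6 lower, against 28.2% of all genes, and 1 higher, against 18.9%. Among those with at least 100 UMIs, Kif23 (-0.60) and Cdk1 (-0.46) were lowest and Birc5 (0.19) and Cdca8 (0.33) highest.

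Replication genes were highest in cells with an intermediate mitosis count. In RSPO3-OE tumour cells the set stood at 923.2 CPM in cells with 0 mitosis UMIs per 2000, 3631.8 CPM in cells with 3 to 5 and 1837.5 CPM in cells with over 10, and in Ctrl at 1120.8, 3844.1 and 2167.2 CPM. The Ctrl level was above the RSPO3-OE level in each of these groups. Within tumour cells with 0 mitosis UMIs the median ratio was -0.40, against -0.11 over all genes, 38 of 39 genes lay below 0, against 61.2% of all genes, and 25 were lower, against 30.3%. With 1 to 5 mitosis UMIs the median was -0.16, 26 genes lay below 0, against 59.1% of all genes, and 12 were lower, against 27.5%. With over 5 the median was -0.20, 29 lay below 0, against 60.97%, and 13 were lower, against 30.6%. A second random thinning gave medians of -0.38, -0.19 and -0.16. Dtl stood at 6.93 against 19.97 CPM with 0 mitosis UMIs, 30.9 against 52.8 CPM with 1 to 5 and 19.6 against 51.6 CPM with over 5, so its gap was present in all 3. Ung stood at 6.84 against 15.8 CPM, 23.7 against 36.9 CPM and 2.44 against 6.19 CPM. Clspn stood lower in RSPO3-OE with 0 mitosis UMIs, at 11.1 against 12.5 CPM with an interval across 0, and higher in the others, at 71.3 against 58.6 CPM and 72.5 against 64.7 CPM.

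In macrophages and CD8 T cells the values within mitosis groups moved with the random thinning. The summed macrophage ratio was 0.08 with 0 mitosis UMIs, -0.34 with 1 to 5 and 0.28 with over 5, from 117 RSPO3-OE and 175 Ctrl cells in the last. A second thinning gave -0.09, -0.11 and 0.17, so the group with 0 changed sign and the other two kept theirs. The whole class stood at -0.15. In CD8 T cells the ratios were -0.03, 0.06 and 0.05, and -0.17, -0.23 and 0.21 with the second thinning, from as few as 29 cells in a group. The counting intervals do not cover this source of spread.

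**Figure D4:**
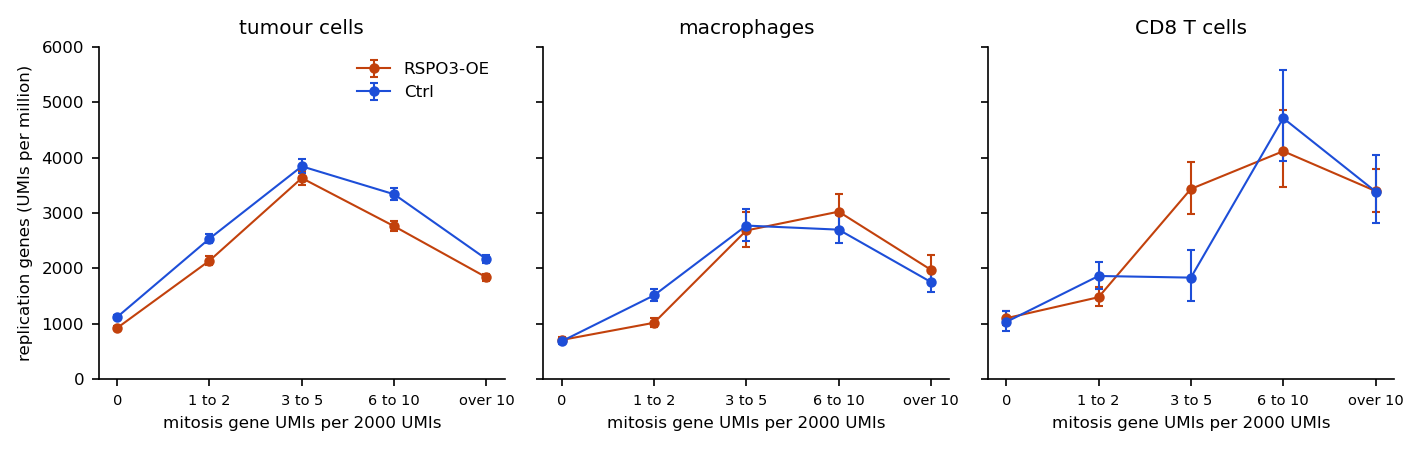
Summed level of the 39 genes (CPM) in cells grouped by UMIs of 26 mitosis genes per 2000 UMIs, with 95% counting intervals, RSPO3-OE in orange and Ctrl in blue. In tumour cells both lines peak at 3 to 5 mitosis UMIs, at 3631.8 and 3844.1 CPM, with Ctrl above RSPO3-OE throughout.

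The genes of the set varied together from cell to cell, to unlike degrees. For each gene, its level in the 10% of cells with the most UMIs of the other 38 was set against its level in the 50% with the fewest. Over the 39 genes the median log2 difference was 2.43 in RSPO3-OE and 2.29 in Ctrl tumour cells. Cdc6, whose transcript is known to be made around the G1 to S transition, varied most, at 48.35 against 2.08 CPM in RSPO3-OE (4.54) and 52.4 against 2.41 CPM in Ctrl (4.44). Ung was next, at 4.24 and 3.83. Dut varied least, at 494.1 against 194.0 CPM in RSPO3-OE (1.35) and 490.5 against 211.6 CPM in Ctrl (1.21), followed by Pold2 at 1.58 and 1.34. Dtl differed most between the libraries, at 47.7 against 7.07 CPM in RSPO3-OE (2.76) and 83.4 against 22.85 CPM in Ctrl (1.87). The cells of a library share its depth and free RNA, and these values are descriptions. In macrophages the medians were 3.38 and 3.31, above those of tumour cells. Among CD8 T cells, Rpa2 varied least, at 140.4 against 89.98 CPM in RSPO3-OE (0.64) and 130.0 against 114.2 CPM in Ctrl (0.19).

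**Figure D5:**
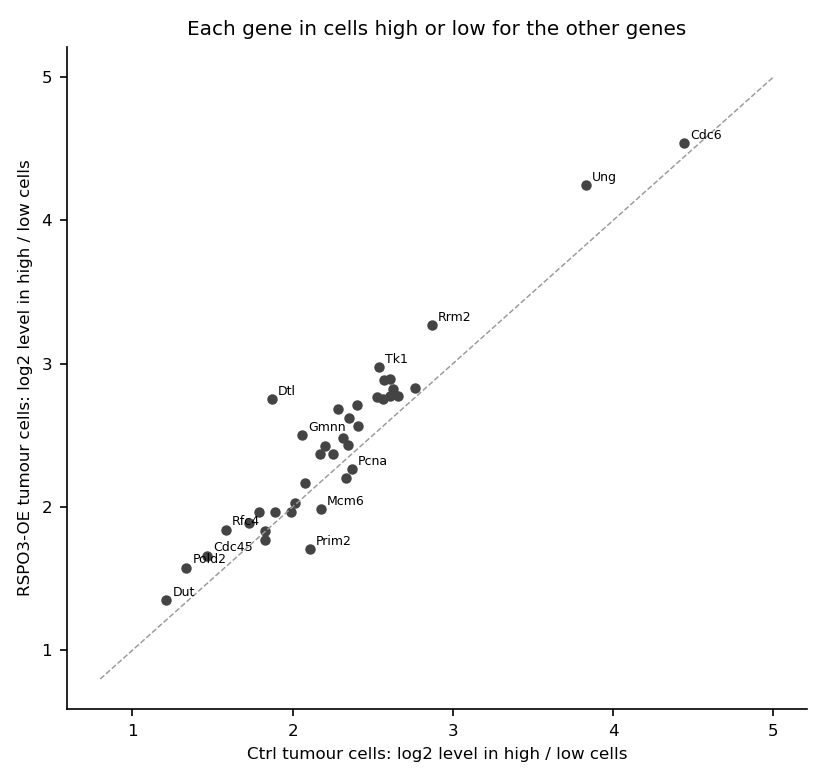
For each of the 39 genes (points), the log2 difference between tumour cells in the top 10% and in the lower 50% by the sum of the other 38 genes, Ctrl on the x axis and RSPO3-OE on the y axis, with the line of equality dashed and selected genes named. Cdc6 and Ung lie at the top in both libraries, Dut and Pold2 at the bottom, and Dtl stands off the line at 1.87 in Ctrl and 2.76 in RSPO3-OE.

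Outside the set, the genes that went most with it in tumour cells were looked for among 10681 genes, by the lower of the 2 libraries' differences between cells highest and lowest in the summed set. The first 10 were Dscc1 (3.58), Ccne1 (3.57), Ccne2 (3.51), Dna2 (3.17), Tcf19 (3.05), Chaf1b (3.02), Exo1 (2.96), Mybl2 (2.88), Wdr76 (2.84) and Pclaf (2.77). Ccne1 and Ccne2 encode E-type cyclins, Chaf1b a subunit of chromatin assembly factor 1 and Pclaf a PCNA-associated factor. Among the genes that went most against it were Aspn and Ogn, small leucine-rich proteoglycans of the matrix, at -4.10 and -2.92 in RSPO3-OE and -5.17 and -3.54 in Ctrl, named after their values were seen. Tumour cells with a UMI of Aspn or Ogn were 35.8% against 27.6% of the class, with a median of 20082 and 17173 UMIs. They held 1595.7 and 1824.4 CPM of the replication genes, against 2335.1 and 2667.5 CPM in the cells without one. Without them the median tumour ratio was -0.18 and 13 genes were lower, with no all-gene share computed for this setting.

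Other genes of replication and nucleotide synthesis, 63 in all, had a median of -0.17 in tumour cells. Of these, 22 were lower, against 29.9% of all genes, and 3 higher, against 18.1%. Lowest were Cdc7, the kinase that fires origins, at 9.92 against 22.2 CPM (-1.16), and Cad, the enzyme that starts pyrimidine synthesis, at 18.1 against 33.5 CPM (-0.89). Highest were Samhd1, which breaks down deoxynucleotides, at 123.8 against 55.5 CPM (1.16), and Rrm2b, the p53-inducible small subunit of ribonucleotide reductase, at 23.3 against 15.5 CPM (0.59). In macrophages Samhd1 was highest among those with at least 100 UMIs, at 305.5 against 210.9 CPM (0.53), and Dscc1 (-0.81) and Ticrr (-0.76) were lowest. There 11 of 63 were lower, against 15.3% of all genes, and 6 higher, against 21.4%. For CD8 T cells, 20 of 61 were lower, against 28.2% of all genes, and 7 higher, against 18.9%. Among those with at least 100 UMIs, Ctps (-0.92) and Paics (-0.63) were lowest and Gins4 (0.53) and Dck (0.79) highest.

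Of 25 E2F and G1 to S regulators in tumour cells, 1 was lower and 4 higher, with a median of -0.07. The shares of all genes counted as lower and higher were 29.9% and 18.1% in tumour cells. They were 15.3% and 21.4% in macrophages and 28.2% and 18.9% in CD8 T cells. Cdkn1a, the gene of the cell cycle inhibitor p21, stood higher in RSPO3-OE in every class, at 111.3 against 35.1 CPM in tumour cells (1.67), 662.6 against 310.7 CPM in macrophages (1.09) and 90.3 against 16.2 CPM in CD8 T cells (2.48). In tumour cells Ccnd2 gave the highest ratio, at 8.72 against 2.28 CPM (1.93), and Cdkn1b the lowest, at 31.2 against 44.9 CPM (-0.53), with E2f4 at -0.26. Macrophages had 2 lower and 4 higher, and among those with at least 100 UMIs E2f7 (-0.38) and E2f8 (-0.29) were lowest and Myc (0.42) and Cdkn1a highest. CD8 T cells had 6 lower and 4 higher, from Ccnd1 at 28.8 against 131.4 CPM (-2.19) and Myc at 18.8 against 51.99 CPM (-1.47) to Rbl2 (0.65) and Cdkn1a. Ctrl CD8 T cells, where Ccnd1 and Myc were higher, also carried more of the tumour markers, whose part was not tested. Of 15 DNA damage response genes in tumour cells, 5 were lower and 1 higher, from Gadd45a at 16.9 against 27.9 CPM (-0.72) and Chek2 (-0.53) to Atm (0.17) and Mdm2, the p53 ubiquitin ligase, at 37.1 against 26.05 CPM (0.51). Macrophages had 4 lower and 3 higher, from Atr (-0.50) and Fancd2 (-0.49) to Gadd45a (0.39) and Mdm2 (0.72). Of 14 in CD8 T cells, 3 were lower and 6 higher, with Atr at -0.20, Mdm2 at 0.54 and Atm at 0.58.

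Within the RSPO3-OE library, the replication genes did not follow the Rspo3 transcript in a steady order. Tumour cells with 0 Rspo3 UMIs, 3273 cells, held 2078.5 CPM of the set (2068.9 to 2088.1), 584 cells with 1 to 9 UMIs held 2224.7 CPM (2202.9 to 2246.7), and 347 cells with 10 or more held 2169.2 CPM (2141.6 to 2197.0). All 3 lay below the Ctrl tumour level of 2464.4 CPM. Dtl stood at 18.3, 22.3 and 20.2 CPM in these groups, against 43.5 CPM in Ctrl. The groups also differed in median depth, at 24491, 28014.5 and 28727 UMIs, and in Mgp, at 575.7, 203.4 and 88.5 CPM. The part of depth and of Mgp in these values was not tested.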

How the data were processed

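The authors deposited raw counts of UMIs for each gene in each cell. Chromium 3′ kit v2 libraries were processed with Cell Ranger 3.0.1, per the labels' protocols, on mm10, per the submitters' processing notes. Software version 3.1.0 stands in the headers of the matrices. The barcodes were already called as cells, 7314 in RSPO3-OE with 155615189 UMIs and 7301 in Ctrl with 143881763.

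Cells were dropped below 200 genes or above 20% mitochondrial UMIs (150 and 311). Doublets marked by Scrublet in scanpy 1.11.5 at an expected rate of 0.05 (171, 2.39%, and 95, 1.36%) were left out, as were cells meeting more than 1 class rule (30 and 12). This left 6993 and 6895 cells, of which 1186 and 1223 met no rule. UMIs were summed per library and class, divided by the class total, and compared as log2 ratios with exact conditional binomial intervals. A sum of 0 was set to 3 counts. Shares have exact Clopper-Pearson intervals. Genes with at least 20 UMIs in both libraries together were compared, and a ratio at least 20% below or 25% above Ctrl stood for a call. PCR duplicates are removed by UMIs, but intervals cover counting error only.

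Annotation came from GENCODE vM21. The text gives members with the 5 highest and 5 lowest ratios among those with at least 100 UMIs per class, the member with the most UMIs per role, the 2 highest and 2 lowest of each other list (some of these are not reported here), and the 10 genes that went most with the set. Members and lists were chosen with earlier results of these data known. Alternatives covered scaling, weighting, thinning, filters, doublets, class rule, folds and limits. Those that leave out cells with Aspn or Ogn, or repeat the thinning, were chosen after seeing the data. The ratio with its interval, and the depth reached by thinning, were tested on simulated counts with counting error alone. Class rules, doublet marking and mitosis groups were not tested in this way. The code ran on scipy 1.17.1, pandas 2.3.3, numpy 2.4.6 and matplotlib 3.10.9 under Python 3.11.15.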

Additional observations from a re-analysis of the deposited data

Results flagged for a closer look

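For 4 genes the counting intervals of the library ratio lay on opposite sides of 0 in 2 classes. The differences between classes were not tested, since each class has 1 library per group. Pcna was lower in RSPO3-OE tumour cells and higher in RSPO3-OE macrophages and CD8 T cells. Its difference in log2 ratio was -0.212 for tumour cells minus macrophages and -0.395 for tumour cells minus CD8 T cells. Over the alternatives, Pcna ranged from -0.23 to -0.01 in tumour cells, 0.06 to 0.22 in macrophages and 0.27 to 0.53 in CD8 T cells. Whether its intervals stayed on opposite sides of 0 under them is not reported here. Lig1 and Clspn were higher in RSPO3-OE tumour cells and lower in RSPO3-OE macrophages, by 0.409 for Lig1 and 0.485 for Clspn in tumour cells minus macrophages, although the tumour ratio of Lig1 took both signs over the alternatives. Mcm10 differed by -1.34 for tumour cells minus CD8 T cells, where the CD8 value rests on 47 and 13 UMIs.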

How the results depend on the processing

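Member medians kept their direction in all 3 classes under every alternative tried for them, while 12 single genes near 0 took both signs in tumour cells. Scaling by the median of gene ratios, which takes out a shift of -0.096 over all tumour genes, moved the tumour median to -0.13 and made 23.9% of all tumour genes lower and 22.5% higher, in place of 29.9% and 18.1%, with 11 members lower. At 1.5-fold, 6, 4 and 2 members were lower in tumour cells, macrophages and CD8 T cells, in place of 13, 11 and 9. The shares of all genes lower at 1.5-fold were 15.9%, 7.04% and 16%. With Scrublet-marked cells kept, 5 members were lower in macrophages and 5 in CD8 T cells, with no all-gene share computed for this setting. With at least 100 UMIs per gene, 5 of the 32 members left were lower in CD8 T cells, against 17.1% of all genes. The difference in the share of tumour cells with at least 5 member UMIs, -7.19 percentage points, was -4.25 with at least 10 UMIs and -9.36 with the stricter class rule. In CD8 T cells this difference was -2.56 points, and 0.899 at 5000 UMIs per cell. Of genes past the limits for lower or higher, sign changes were seen in thinned cells (Dtl in macrophages at 0.0354, Mcm2 and Gins2 in CD8 T cells at 0.49 and 0.0589) and with doublets kept (Cdc6 in CD8 T cells at 0.0133), and the cause was not tested. Among other genes, Prim1 in CD8 T cells reached 0.47 from -0.22 and Pola2 in macrophages -0.46 from 0.15. Leaving out a replicate was not possible with 1 library per group. No paired analysis was possible because each group has 1 library.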
